A study of Homo sapiens with 6 samples.

Results

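PRMT5, its partner WDR77, the adaptors CLNS1A, RIOK1 and COPRS, and the arginine methyltransferases PRMT9, PRMT7, PRMT1, PRMT3 and CARM1 were compared at the mRNA level between LNCaP cultures with and without PRMT5 knockdown. These 10 genes were taken by symbol from a deposited table of 12768 genes. LNCaP is an androgen-responsive human prostate cancer cell line. The cells carried a stable plasmid from which doxycycline induces a short hairpin RNA that targets PRMT5. In the knockdown group 3 cultures received doxycycline for 4 days, and in the group without knockdown 3 cultures of the same hairpin-carrying cells grew for 4 days without it. The series asked which genes differ after the knockdown and describes the cultures as biological replicates. No culture given doxycycline but lacking the hairpin is among the samples, and none with another hairpin. The effects of the drug, of the hairpin on other transcripts and of the PRMT5 knockdown therefore cannot be told apart. Neither the hairpin sequence nor whether the line is 1 clone is given in the sources used here.

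Arginine methyltransferases move methyl groups from S-adenosylmethionine onto arginine side chains. Type I enzymes (PRMT1, PRMT3, CARM1) leave asymmetric dimethylarginine, type II enzymes (PRMT5, PRMT9) leave symmetric dimethylarginine, and the type III enzyme PRMT7 stops at monomethylarginine. PRMT5 works in a complex with the WD-repeat protein WDR77, the methylosome, in which both proteins are present in equal numbers, and adaptor proteins bring it its substrates. CLNS1A (pICln) presents Sm proteins of the spliceosome, RIOK1 presents nucleolin, and COPRS directs the complex to histones in the nucleus. CARM1 and PRMT5 have both been described as coregulators of the androgen receptor in prostate cells.

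The libraries held 7911853 to 15831938 counted reads, and each member had between 91 and 1907 reads in each library, so all 10 passed the filter on low counts. Of 9 luminal prostate markers 9 were in the table, with a summed level of 4417 to 4450 CPM (read counts normalised to library size, with TMM scaling between libraries) without knockdown and 4252 to 4312 CPM with it. The table listed none of 3 basal epithelial and 2 leukocyte markers, 2 of 3 stromal markers (16.3 to 24.8 CPM summed without knockdown, 19.8 to 22.3 with it) and 1 of 2 endothelial markers (13.8 to 17.5 and 10.9 to 17.2 CPM). Their part in the results was not tested. Replicate 2 of both groups stood apart from the other replicates, with counts 10.4 to 20.4 times more dispersed against them than sampling alone gives, compared with 1.73 and 7.01 for replicates 1 and 3 of the cultures without and with knockdown. Without both libraries numbered 2, 2141 of the 12768 genes passed the test described below, beside 189 with all 6 libraries, and counts from that fit are given beside the results they change. In bulk RNA, fewer cells with a transcript and less of it in each cell cannot be told apart.

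Sequence is shown for the 2 members that fell past the test, because they are also the members whose reference mRNA holds the letters TTCCCTA, a 7-base sequence that an earlier search of these same data had tied to lower fold changes. No values of that search are given here, and the tie was not tested. Each window is mRNA sense, from GENCODE 29 transcripts (GRCh38), with the match in capitals and, where it follows, the next A.

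PRMT5: ttcccatcctcTTCCCTAttaagcagccca

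WDR77: catcctacatcTTCCCTAAgcactgcctct

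The PRMT5 match lies in the coding part of the reference transcript, in exon 16 of 17, on the minus strand of chromosome 14 from 22922181 to 22922187, and its window crosses into exon 17. The WDR77 match lies in the 3′ untranslated region of its reference transcript, in exon 10 of 10, on the minus strand of chromosome 1 from 111440941 to 111440947. The letters were searched on the mRNA strand of 1 reference transcript a gene. They were not found in the 1 transcript searched for each of the other 8 members. Among 11328 measured genes with a 3′ untranslated region of at least 50 bases, 11.1% hold TTCCCTA there and 3.65% hold it followed by A, and 5.18% hold it in the coding part. The sequence was picked on these fold changes, so its presence in WDR77 is a description and adds no support.

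PRMT5 mRNA fell to 11.8% of its level, and WDR77 mRNA fell to 64.5%. The adaptors CLNS1A, RIOK1 and COPRS did not pass the test with the group as the only term. By edgeR's quasi-likelihood test with Benjamini-Hochberg adjustment over all genes at 0.05, 2 of the 10 members were lower, 0 were higher and 8 did not pass. In the same fit 1.48% of all 12768 genes passed in either direction, 1.14% lower and 0.337% higher. A replicate block pairs the libraries of the same number, a pairing that the labels do not state. When the fit also held this block 4 of 10 passed, 3 lower (PRMT5, WDR77 and COPRS) and 1 higher (PRMT9), against 8.31% of all genes (5.1% lower and 3.21% higher). Leaving out PRMT5, the target of the hairpin, 1 of 9 members passed without the block and 3 of 9 with it, and the median log2 fold change of the 9 was -0.04 beside 0.00 (-0.0021) for all genes. The authors' deposited table lists PRMT5 and WDR77 as lower and PRMT9 as higher under a false discovery rate of 0.05, 3 of 10 members against 3.7% of all genes (2.68% lower and 1.02% higher).

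**Figure D1:**
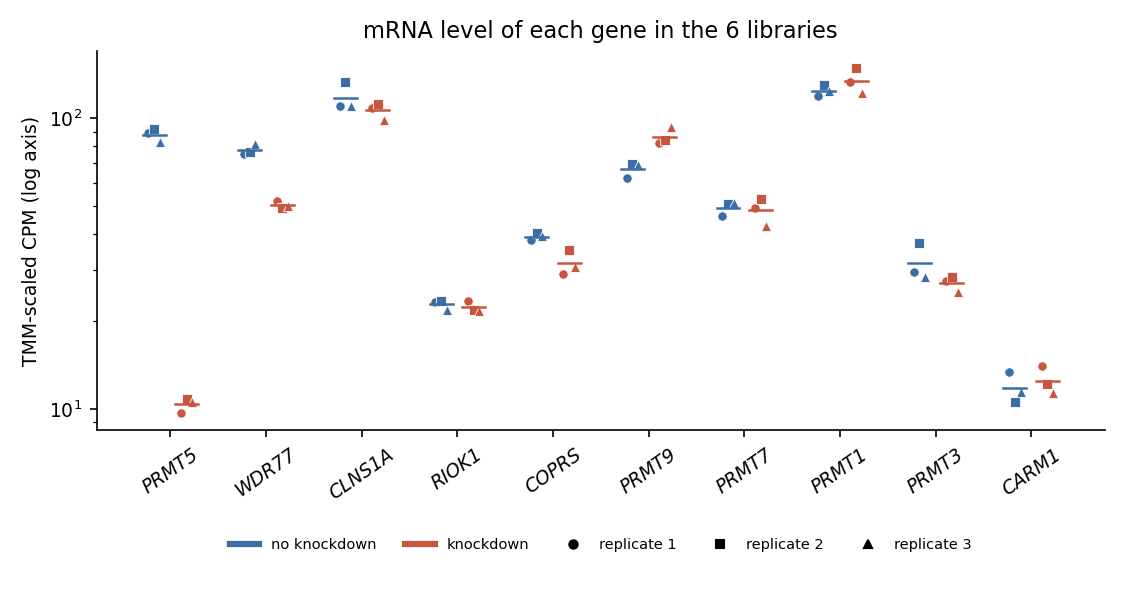
mRNA level of the 10 genes as TMM-scaled CPM on a log axis, with 1 point per library, marker shapes for replicates 1 to 3 and a line at each group's mean (3 libraries each). PRMT5, WDR77, COPRS and PRMT3 lie lower in the 3 knockdown libraries than in the 3 without knockdown and PRMT9 lies higher, with no overlap, and the other 5 genes overlap.

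PRMT5 (chromosome 14 from 22920511 to 22929585, GRCh38, minus strand) stood at 88.7, 91.96 and 82.8 CPM without knockdown and at 9.69, 10.8 and 10.6 CPM with it. The 3 knockdown libraries were the 3 low ones, as labelled, and the groups lay far apart. The knockdown values rest on 102, 116 and 165 reads. PRMT5 had a log2 fold change of -3.08 (SE 0.094, 95% interval -3.29 to -2.87, edgeR adjusted p = 1.37e-07), the smallest p and the second largest fall of the 12768 genes. With 3 libraries a group an exact two-sided permutation test cannot go below p = 0.1. PRMT5 reached that limit, as did WDR77, COPRS, PRMT3 and PRMT9, the other members whose groups did not overlap. Per length, the PRMT5 level ranked above 82.5% of genes in the table without knockdown and above 24.5% with it.

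WDR77 (chromosome 1 from 111439890 to 111449376, minus strand) encodes the partner that PRMT5 needs for stable activity. It stood at 75.5, 76.7 and 81.3 CPM without knockdown and at 51.8, 49.1 and 49.7 CPM with it. The knockdown libraries were lower in 3 of 3 pairs, and the groups' spreads were small beside the gap (SD 3.05 and 1.41 CPM, n = 3 each). WDR77 had a log2 fold change of -0.63 (SE 0.075, 95% interval -0.80 to -0.47, edgeR adjusted p = 0.00378), and the gene ranked 22nd by p. The fall of WDR77 passed in each of 17 alternative fits, with an adjusted p of at most 0.0416 from edgeR, DESeq2 or limma. Among these, the fit with no filter repeats the main fit, because the filter removed 0 genes.

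In the cultures without knockdown PRMT5 and WDR77 mRNA were present at nearly the same level per kilobase of exon. PRMT5 stood at 33.6 ± 1.77 CPM per kilobase (SD, n = 3) and WDR77 at 32.3 ± 1.27, and their ratio was 1.08, 1.10 and 0.938 in the 3 libraries. In the knockdown libraries the ratio was 0.172, 0.203 and 0.196, with more WDR77 than PRMT5 mRNA per kilobase in each library. No protein was measured, so these mRNA ratios do not give the proportions of the proteins in the complex. With the longest annotated transcript as the length, the mean ratios were 1.15 and 0.211.

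The gene ATP5F1, a subunit gene of mitochondrial ATP synthase (ATP5PB in GENCODE 29), lies head to head with WDR77 on the opposite strand, and their deposited exons share 88 bases, 3.65% of the WDR77 exon length. ATP5F1 stood at 170, 179 and 173 CPM without knockdown and at 168, 179.9 and 170.2 CPM with it. The groups overlapped (log2 fold change -0.01, 95% interval -0.16 to 0.14, edgeR adjusted p = 0.965). The interval of ATP5F1 does not reach the fall of WDR77 beside it.

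Among the adaptors, COPRS was lower past the test in 3 of 17 alternative fits and not without the block on all 6 libraries, and CLNS1A and RIOK1 did not pass in any of these. COPRS (chromosome 17 from 31851864 to 31859337, minus strand), the adaptor toward histones, stood at 38.0, 40.2 and 39.3 CPM without knockdown and at 29.1, 35.2 and 30.8 CPM with it. The groups did not overlap, and the value was lower in 3 of 3 pairs. Non-overlapping groups were found for 5 of the 10 members and 19.8% of all genes (11.6% lower and 8.22% higher after knockdown). COPRS had a log2 fold change of -0.31 (SE 0.096, edgeR adjusted p = 0.179), and with the replicate block the edgeR adjusted p was 0.0387. With the block and without pair 1 or pair 3 it was 0.371 or 0.216, and without pair 2 it was 0.00376, so the COPRS call depends on which libraries are in the fit.

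CLNS1A (chromosome 11 from 77514936 to 77637805, minus strand), the adaptor for Sm proteins, stood at 110, 133 and 110.2 CPM without knockdown and at 109, 112 and 98.8 CPM with it. The high value was replicate 2 without knockdown, and the groups overlapped. Its log2 fold change of -0.14 had a 95% interval of -0.35 to 0.06 (edgeR adjusted p = 0.532), so a fall as large as that of WDR77 lies outside the interval. Without no-knockdown replicate 2 the CLNS1A log2 fold change was -0.0481. RIOK1 (chromosome 6 from 7389496 to 7418037, plus strand), a RIO-family kinase, stood at 23.3, 23.6 and 21.96 CPM without knockdown and at 23.5, 21.9 and 21.7 CPM with it. These 6 values span less than 2 CPM with the groups intermixed, and the log2 fold change was -0.04 (95% interval -0.25 to 0.17, edgeR adjusted p = 0.892).

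CLNS1A and RIOK1 bind PRMT5 at the same site in a mutually exclusive way, so their relative levels are given as well. Per kilobase, RIOK1 mRNA stood at 0.104 ± 0.0093 of CLNS1A without knockdown and at 0.112 ± 0.0070 with it (SD, n = 3), a difference smaller than 1 SD of the libraries without knockdown. The ratio of each adaptor to PRMT5 is larger after knockdown since PRMT5 is its denominator. CLNS1A went from 2.55 ± 0.20 to 19.6 ± 1.83 times the PRMT5 level, COPRS from 1.25 ± 0.067 to 8.52 ± 0.50 times and RIOK1 from 0.265 ± 0.0047 to 2.20 ± 0.23 times. The level of CLNS1A depends on its length, and with the longest transcripts CLNS1A went from 1.13 to 8.72 times PRMT5, and RIOK1 stood at 0.209 and 0.224 of CLNS1A. RIOK1 mRNA, which lay below PRMT5 in each library without knockdown, lay above it in each knockdown library.

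**Figure D2:**
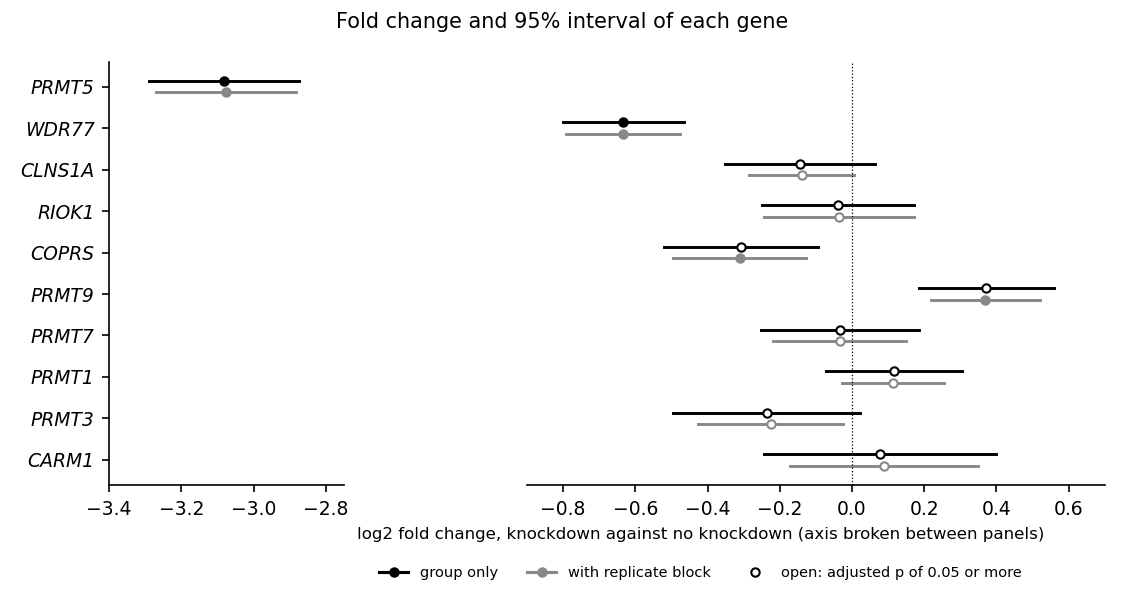
Log2 fold change of the 10 genes with 95% intervals, from edgeR with the group as the only term (black) and with a replicate block added (grey), filled where the adjusted p over all genes is under 0.05. The axis is broken between PRMT5 at -3.08 and the other 9 genes, which lie between -0.63 (WDR77) and 0.37 (PRMT9).

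PRMT9 had the highest fold change of the members. It encodes the other type II enzyme, which methylates the splicing factor SF3B2. The row lies on chromosome 4 (147637785 to 147684230, minus strand), so it is not FBXO11, for which the same symbol was once used. PRMT9 stood at 62.2, 69.3 and 69.1 CPM without knockdown and at 82.4, 83.9 and 92.98 CPM with it. Every knockdown library was above every library without knockdown, and PRMT9 was higher in 3 of 3 pairs, by 0.40, 0.28 and 0.43 on the log2 scale. A same-direction difference in all 3 pairs was found for 6 of the 10 members and 43.7% of all genes (22.8% lower and 20.9% higher). The log2 fold change of 0.37 (SE 0.084, 95% interval 0.19 to 0.56) did not pass by edgeR (adjusted p = 0.0633). It passed with the replicate block (edgeR adjusted p = 0.00462), by DESeq2 (adjusted p = 0.0258), and in the authors' deposited table (false discovery rate 0.0101). With the block and without pair 1, 2 or 3 the edgeR adjusted p of PRMT9 was 0.0547, 9.45e-05 or 0.0629, and without both libraries numbered 2 and no block it was 0.000305.

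The order of the 2 type II enzymes by mRNA level differed between the groups. Per kilobase of exon PRMT9 stood at 0.520, 0.559 and 0.619 of PRMT5 in the libraries without knockdown and at 6.31, 5.75 and 6.50 times PRMT5 in those with it. The PRMT9 level itself went from 19.0 ± 1.14 to 24.5 ± 1.62 CPM per kilobase (SD, n = 3), and that of PRMT5 from 33.6 ± 1.77 to 3.96 ± 0.23.

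The gene TMEM184C, which encodes a transmembrane protein, lies tail to tail with PRMT9 on the opposite strand and was also higher after knockdown. It stood at 215, 233 and 208 CPM without knockdown and at 333, 288 and 318 CPM with it. The groups did not overlap, and TMEM184C rose by a log2 fold change of 0.52 (SE 0.080, edgeR adjusted p = 0.0138). That call was lost without replicate 1 or 3 of either group (edgeR adjusted p 0.0807 to 0.104), where 24 to 52 of all genes passed. With the block and without pair 1 or pair 3 TMEM184C passed (edgeR adjusted p 0.000588 or 0.00321), beside 455 or 412 of all genes. In the deposited coordinates the exons of the genes lie 2263 bases apart and share 0 bases, while in GENCODE 29 a longer TMEM184C transcript runs across part of PRMT9, overlapping its span by 34260 bases. The strand setting of the counting is not given in the sources used here, and the part of TMEM184C reads in the PRMT9 count was not tested. Across the 10 members, 24 annotated genes overlap or lie within 5 kb, and 8 of them are in the table. Of these 8, TMEM184C was the 1 that passed, both without the block (1.48% of all genes passed) and with it (8.31%).

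**Figure D3:**
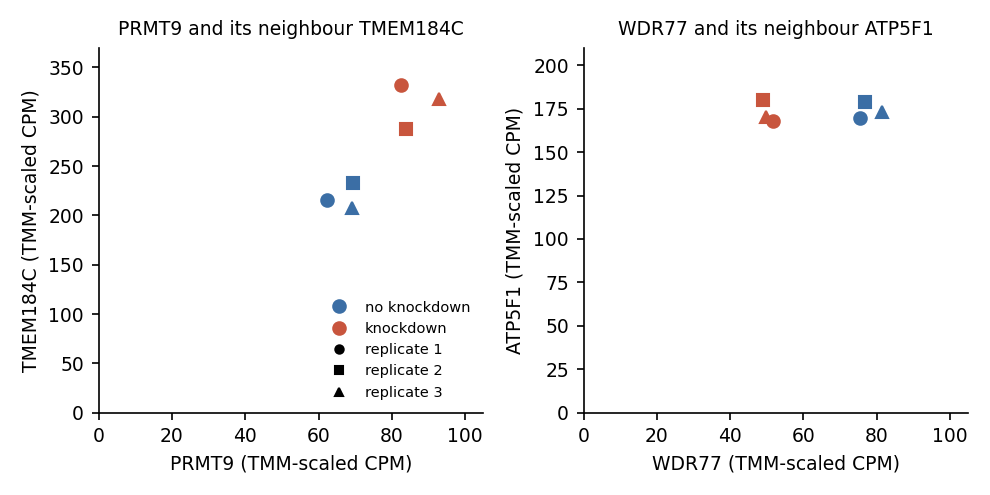
TMM-scaled CPM of PRMT9 against its neighbour TMEM184C and of WDR77 against its neighbour ATP5F1, 1 point per library with both axes from 0. TMEM184C is higher in the knockdown libraries (288 to 333 CPM) along with PRMT9, while ATP5F1 stays between 168 and 179.9 CPM where WDR77 is lower.

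PRMT7, the monomethylating enzyme (chromosome 16 from 68310974 to 68358563, plus strand), stood at 46.0, 50.7 and 50.9 CPM without knockdown and at 49.1, 52.8 and 42.6 CPM with it. The highest and the lowest of these values were both knockdown libraries. Its log2 fold change was -0.03 (95% interval -0.25 to 0.19, edgeR adjusted p = 0.915), and it turned to 0.05 without knockdown replicate 3.

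None of the type I enzymes passed by edgeR. PRMT1 (chromosome 19 from 49675786 to 49689029, plus strand), which makes most asymmetric dimethylarginine in cells, stood at 119, 130.0 and 124 CPM without knockdown and at 133, 149 and 122 CPM with it. The groups overlapped, and the log2 fold change was 0.12 (95% interval -0.07 to 0.30, edgeR adjusted p = 0.592). PRMT3 (chromosome 11 from 20387530 to 20509294, plus strand), a cytosolic enzyme that methylates ribosomal protein S2, stood at 29.7, 37.2 and 28.5 CPM without knockdown and at 27.5, 28.4 and 25.3 CPM with it. All 3 knockdown libraries were below the lowest of the others by a narrow margin, and replicate 2 without knockdown was the high one. PRMT3 had a log2 fold change of -0.24 (95% interval -0.50 to 0.02, edgeR adjusted p = 0.406, and 0.165 with the replicate block). Without no-knockdown replicate 2 the PRMT3 log2 fold change was -0.11.

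CARM1 (chromosome 19 from 10871513 to 10923070, plus strand), which methylates histone H3 and transcriptional coactivators, was the lowest-counted member without knockdown, with 91 to 146 reads there. It stood at 13.4, 10.6 and 11.4 CPM without knockdown and at 14.1, 12.2 and 11.3 CPM with it. The groups were intermixed and the log2 fold change of 0.08 had the widest interval of the members (-0.24 to 0.40, edgeR adjusted p = 0.854). Its sign turned without no-knockdown replicate 2 (-0.0015).

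Ordered by level per kilobase of exon without knockdown, CLNS1A (85.7 ± 9.60 CPM per kilobase, SD, n = 3) and PRMT1 (79.2 ± 3.48) were highest and their ranges overlapped. COPRS (41.8 ± 1.18) came next, then PRMT5 and WDR77, whose ranges overlapped, then PRMT9 and PRMT7 (15.9 ± 0.90), whose ranges did not. PRMT3 (11.6 ± 1.72), RIOK1 (8.89 ± 0.33) and CARM1 (3.97 ± 0.49) closed the order, each range apart from the next. After knockdown PRMT5 (3.96 ± 0.23) ranked last, with a range that overlapped that of CARM1 (4.22 ± 0.47), and PRMT9 ranked above WDR77 (20.8 ± 0.58). The order depends in part on length. With the longest annotated transcript of CLNS1A (2993 bases beside 1373 in the deposited table) its level without knockdown became 39.3 CPM per kilobase, PRMT1 ranked first, RIOK1 moved above PRMT3, and after knockdown PRMT5 ranked 9 and CARM1 ranked 10.

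**Figure D4:**
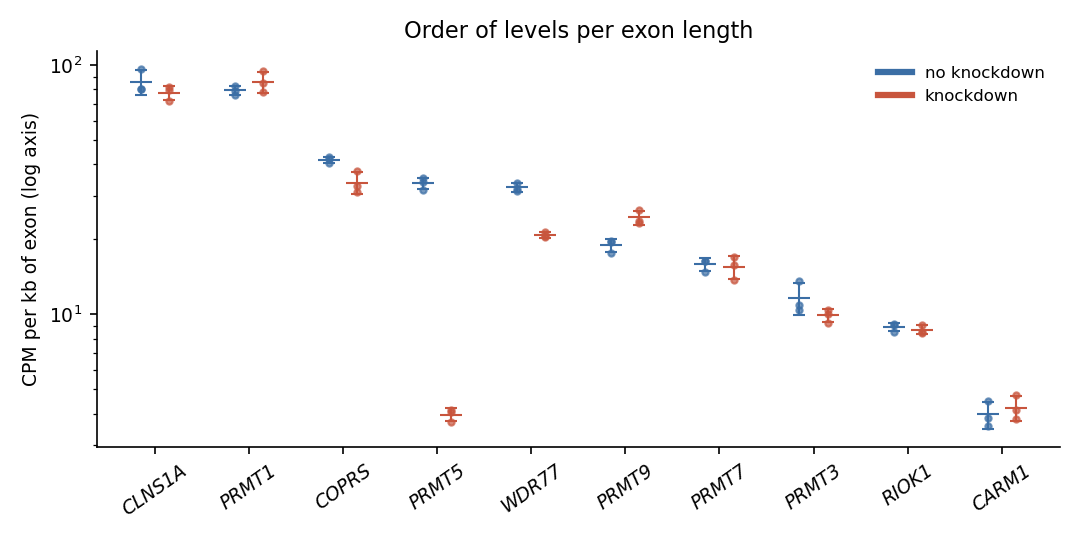
Level of the 10 genes per kilobase of deposited exon length on a log axis, ordered by the mean without knockdown, with points for the 3 libraries of each group, the mean and error bars of 1 SD. PRMT5 drops from 33.6 to 3.96 CPM per kilobase, next to CARM1, and PRMT9 goes from 19.0 to 24.5, past WDR77.

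The summed level of the 6 methyltransferases among the members went from 163 ± 7.06 to 144 ± 9.60 CPM per kilobase (SD, n = 3). PRMT5 made up 20.6 ± 0.91% of the sum without knockdown and 2.76 ± 0.21% with it. PRMT1 made up 48.5 ± 0.45% and 59.6 ± 1.89%, and PRMT9 11.6 ± 0.52% and 17.1 ± 2.11%. PRMT3 made up 7.11 ± 0.75% and 6.88 ± 0.18%. A fall of 1 enzyme raises the shares of the others if their levels stay the same, so a share is no measure of an enzyme's own level. Without PRMT5 the sum of the other 5 was 124, 136 and 129 CPM per kilobase without knockdown and 139, 150.2 and 131 with it, ranges that overlapped.

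The genes whose profile over the 6 libraries lay closest to PRMT5 were not close to it. Likeness was taken as the root mean square difference of log2 CPM relative to the mean of the libraries without knockdown, among 11434 other genes with a mean log2 CPM of at least 2. The nearest to PRMT5 were SLITRK5 (0.70), BOLA3 (0.92) and SLC18B1 (1.02), each far beyond the spread between replicates. WDR77 had near neighbours, namely the protease gene CTSO (0.036), the V-ATPase assembly factor gene VMA21 (0.051) and the arginase gene ARG2 (0.055). Nearest to PRMT9 were the transcription factor gene EBF3 (0.043), SPIN3, a spindlin-family gene (0.048), and the cortisol-inactivating enzyme gene HSD11B2 (0.053). These differences describe 6 libraries and carry no test.

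Other genes of arginine methylation mostly did not pass. Of 5 further methyltransferases 4 were measured, and none of the 4 passed by edgeR (0 with the block and 0 by DESeq2). NDUFAF7, a mitochondrial enzyme, had the smallest p (log2 fold change 0.09, edgeR adjusted p = 0.776). Of 18 measured substrates that carry symmetric dimethylarginine, 0 passed by edgeR with or without the block and 0 by DESeq2 (median log2 fold change 0.02 beside 0.00 for all genes). In the fit without both libraries numbered 2, 1 of the 18 passed, beside 2141 of the 12768 genes. Leaving out knockdown replicate 2 alone, 1 passed as well, beside 445 of all genes. The member with the smallest p was GOLGA2, a Golgi matrix protein gene (-0.13, edgeR adjusted p = 0.453). Of 18 substrates of the other methyltransferases 0 passed by edgeR without the block and 0 by DESeq2, and 3 were higher with the block, where 8.31% of all genes passed. Without both libraries numbered 2, 5 of the 18 passed, beside 2141 of the 12768 genes. The 3 called with the block were the coactivator genes NCOA3, EP300 and MED12, which are targets of CARM1. NCOA3 had a log2 fold change of 0.23 (edgeR adjusted p = 0.221, 0.0452 with the block), EP300 one of 0.28 (0.628 and 0.0421) and MED12 one of 0.27 (0.260 and 0.0284). The EP300 groups overlapped widely, from 88.2 to 129 CPM without knockdown and from 94.4 to 165 CPM with it. Those of NCOA3 and MED12 did not overlap, as for 19.8% of all genes. With the block and without pair 1 or pair 3 none of the 3 passed (edgeR adjusted p 0.128 to 0.446). SMARCC1, a chromatin remodelling subunit and also a CARM1 target, had a log2 fold change of -0.16 (edgeR adjusted p = 0.478) and was named after its value was seen. That list had a median of 0.08. It was not divided by enzyme, and CARM1 targets as a set were not tested.

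Of 5 measured Tudor domain genes, whose proteins read methylated arginine, 0 passed by edgeR without the block and 0 by DESeq2. With the block 1 was lower, where 8.31% of all genes passed. Without both libraries numbered 2, 2 of the 5 passed, beside 2141 of the 12768 genes. The gene called with the block was SND1, at 219 ± 4.69 and 188 ± 4.97 CPM (log2 fold change -0.22, edgeR adjusted p = 0.150, and 0.0264 with the block). With the block and without pair 1 or pair 3 the SND1 call was lost (edgeR adjusted p 0.331 or 0.200). Of 12 measured enzymes of the methyl donor and of methylthioadenosine, the metabolite that inhibits PRMT5, 0 passed by edgeR without or with the block. By DESeq2 0 passed, and 0 without both libraries numbered 2. The smallest p was that of the adenosine kinase gene ADK (-0.21, edgeR adjusted p = 0.397). Of the 12, 10 lay below 0, with a median of -0.10 beside 0.00 for all genes. Above 0 lay 13 of the 18 substrates of the other methyltransferases and 11 of the 14 regulators and recruiting partners given below. These directions were not tested.

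Of 14 measured regulators and recruiting partners, 1 was higher and 0 lower, both without the block (1.48% of all genes passed) and with it (8.31%). In the fit without both libraries numbered 2, 5 of the 14 passed, beside 2141 of the 12768 genes. BTG1, an antiproliferative protein that binds PRMT1, stood at 60.7, 68.4 and 55.0 CPM without knockdown and at 99.3, 79.6 and 95.9 CPM with it. The groups did not overlap, and replicate 2 had the smallest gap. BTG1 had a log2 fold change of 0.58 (SE 0.11, edgeR adjusted p = 0.0304). That BTG1 call was lost without replicate 1 or 3 of either group (edgeR adjusted p 0.119 to 0.177), where 24 to 52 of all genes passed. With the block and without pair 1 or pair 3 BTG1 passed (edgeR adjusted p 0.00122 or 0.0123), beside 455 or 412 of all genes. Of 4 measured genes of free methylarginine and arginine modification, 0 passed by edgeR without the block. Only 1 of them, DDAH1, passed by DESeq2, with the block and without both libraries numbered 2. In these fits 303, 1061 and 2141 of the 12768 genes passed. DDAH1, which breaks down free asymmetric dimethylarginine, stood at 196, 183 and 189.5 CPM without knockdown and at 235, 226.5 and 244 CPM with it. Its groups did not overlap (log2 fold change 0.31, edgeR adjusted p = 0.0557, and 0.00357 with the block; DESeq2 adjusted p = 0.0166). Its edgeR adjusted p was 0.0334 without knockdown replicate 2, 0.000161 without both libraries numbered 2, and 0.0808 with the block and without pair 3.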

How the data were processed

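RNA of 6 cultures was extracted with Trizol and sequenced after library preparation with NEBNext Ultra II, per the labels' protocols. The submitters' processing notes name STAR 2.5, featureCounts, Subread 1.6.5, edgeR 3.20.8 and build hg38. The sources used here do not give the annotation, the strand setting or the filter. The authors deposited raw read counts per gene, log2 CPM per library (not used further), and log2 fold changes with p-values and false discovery rates, per the file headers. The deposited coordinates do not match hg38 (PRMT5 is placed elsewhere by GENCODE 29), so positions come from GENCODE 29, and deposited exons were used for lengths and gaps only.

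The test was edgeR's robust quasi-likelihood test (version 4.0.16, R 4.3.3) on the counts after TMM scaling, with 1 term for the group and p-values adjusted over 12768 genes (Benjamini-Hochberg). The filterByExpr filter (minimum count 10, minimum total 15) removed 0 genes. A standard error is the unshrunken log2 fold change over the root of its F statistic, and 95% intervals use the fit's t quantiles. Log2 CPM used a prior count of 2, and 3 counts are worth 0.189 to 0.379 CPM.

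Same-numbered libraries deviated together across genes (correlations 0.339, 0.453 and 0.169), each above 0.1. On this limit the numbers were treated as pairs, and the fit with the replicate block is given where it changes a call. The limit does not single out pair 3. No-knockdown replicate 3 correlated more with knockdown replicate 1 (0.232) than with knockdown replicate 3 (0.169). Knockdown replicate 3 also correlated more with no-knockdown replicate 1 (0.199). Both mismatched values exceed 0.1, so the correlations cannot decide whether number 3 marks a pair. Calls made only with the block rest on this pairing. Every replicate pair differed by more than sampling noise. The p-values set the group difference against the spread between these cultures, estimated with information shared across genes. With the block, that spread is what remains after the differences between replicate numbers.

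All 10 members are named, then from each list the genes past the threshold (with the block where that adds any) or the 1 with the smallest p (and SMARCC1), the 3 genes nearest in profile to PRMT5, WDR77 and PRMT9, and neighbouring genes that overlap or adjoin a member. The members and lists were chosen with earlier results of these data known. Alternatives were DESeq2 1.42.0, limma-voom (limma 3.58.1), DESeq2 size factors, library totals, no filter, at least 50 reads in every library, the block, each library left out, and both libraries numbered 2 left out. The block with each pair left out was added after seeing the data.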

Additional observations from a re-analysis of the deposited data

How the results depend on the processing

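Of 17 alternative fits, PRMT5 and WDR77 were lower past the threshold in 17 (log2 fold changes -3.14 to -3.01 and -0.67 to -0.59), PRMT9 was higher past it in 4 (0.32 to 0.43 over the 17) and COPRS lower past it in 3 (-0.39 to -0.24). CLNS1A, RIOK1, PRMT7, PRMT1, PRMT3 and CARM1 passed in 0 of 17. The count of members past the threshold was 2, and 4 with the replicate block, 4 without both libraries numbered 2, and 2, 4 and 2 with the block and without pair 1, 2 or 3. The count of genes was 189, 1061 with the replicate block, 303 by DESeq2, 2141 without both libraries numbered 2, from 24 to 445 when 1 library was left out, and 455, 2391 and 412 with the block and without pair 1, 2 or 3. Of the genes past the threshold, those lower made up 77.2%, 61.4% with the block and 54.4% without both libraries numbered 2, and the cause was not tested. Fits without 1 library have fewer samples. The fit with no filter is counted among the 17 but repeats the main fit, since the filter removed 0 genes. The sign turned, in no case past the threshold, for PRMT7 (-0.1046 to 0.051 when 1 library was left out, and 0.0758 with the block and without pair 3), for CARM1 (-0.0015 to 0.19 when 1 library was left out, and -0.0039 without both libraries numbered 2) and for ATP5F1 (-0.0398 to 0.0199 when 1 library was left out, and 0.0023 with the block and without pair 1). The replicate block changed no call of a member other than COPRS and PRMT9.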
